A study of Mus musculus with 16 samples.

Results

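Genes of the Polycomb repressive complexes were followed in thymic T cell lymphomas of 4 transgenic groups and in T cells from the thymus of wild-type (WT) animals. The 9 genes were Ezh1, Ezh2, Eed, Suz12 and Jarid2 of Polycomb repressive complex 2 (PRC2), Bmi1, Rnf2 and Ring1 of Polycomb repressive complex 1 (PRC1), and the histone demethylase Kdm6b, which removes the PRC2 mark. They were chosen by symbol, as the array features annotated with exactly 1 of these names, and the brightest feature of each gene was kept. They are 9 of the 22180 genes that had a feature of their own, and all 9 were among the 12932 genes bright enough to be tested (on 3 or more arrays, brighter than the middle feature of that array). Each of 16 tumors or thymi was hybridized to 1 Affymetrix whole-transcript mouse array. WT arrays (n = 3) came from 9-month-old littermates of Lck-Dlx5 mice. Lck-Dlx5 lymphomas (n = 3, 9 months) carried the homeobox gene Dlx5 behind the Lck promoter, which drives expression in the developing T cells of the thymus, and came from founder lines 63, 47 and 86 as replicates 1, 2 and 3. Lck-MyrAkt2 tumors (5 months) carried a myristylated, constitutively active Akt2 behind the same promoter, in founder line 72 (n = 3) and founder line 420 (n = 3). Double transgenic tumors (n = 4, 2 months) carried both transgenes. Replicates 1 and 2 of these came from Dlx5 founder line 47 crossed with MyrAkt2 line 420, and replicates 3 and 4 from Dlx5 founder line 86 with no Akt2 line named in the labels. WT and Lck-Dlx5 mice had the same age, as did the mice of the 2 Lck-MyrAkt2 lines. In all other comparisons age went with genotype, so the 2 cannot be told apart there. Tumors of 1 founder line share their transgene insertion.

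Polycomb proteins keep genes silent through marks on histones. PRC2 methylates histone H3 on lysine 27 (H3K27) through one of a pair of alternative catalytic subunits, Ezh2, typical of dividing cells, or Ezh1, more common in resting cells. Eed and Suz12 are core partners without which the enzyme does not work, and Jarid2 is an accessory protein that helps bring PRC2 to chromatin. PRC1 ubiquitylates histone H2A through the ring finger proteins Rnf2 (Ring1b) or Ring1 (Ring1a), and Bmi1 is one of the Pcgf proteins that pair with them. Kdm6b (Jmjd3) and its X-linked relative Kdm6a (Utx) take methyl groups off H3K27. In human T cell acute lymphoblastic leukemia, loss-of-function mutations of PRC2 genes are known.

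Promoter sequences of Ezh1, Jarid2 and Suz12, which were called against WT in every alternative setting of at least 1 comparison (as was Kdm6b), are shown beside that of Ezh2, whose group means spanned the narrowest range of the 9 genes. They are the 250 bases before the annotated start, from RefSeq on GRCm38.p6, written 5′ to 3′ on the strand of the gene. Capitals mark matches on either strand to 6 short motifs, and a match is a description of letters only. The Ezh1 promoter (chr11:101226464-101226713, minus strand) held none of the 6, and Ezh2 (chr6:47595031-47595280, minus strand) held 3 CCAAT boxes. The Ezh2 gene extends to chr6:47595270, so its printed stretch precedes a start inside the gene and lies mostly within the gene. Jarid2 has 2 annotated starts (chr13:44730524-44730773 and chr13:44731021-44731270, plus strand), and Suz12 lies at chr11:79992856-79993105, plus strand.
Ezh1: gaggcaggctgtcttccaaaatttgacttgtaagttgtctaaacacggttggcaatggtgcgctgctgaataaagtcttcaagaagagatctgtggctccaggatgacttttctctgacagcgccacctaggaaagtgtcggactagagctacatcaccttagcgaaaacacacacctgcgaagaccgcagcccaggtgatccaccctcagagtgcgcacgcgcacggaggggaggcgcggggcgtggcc
Ezh2: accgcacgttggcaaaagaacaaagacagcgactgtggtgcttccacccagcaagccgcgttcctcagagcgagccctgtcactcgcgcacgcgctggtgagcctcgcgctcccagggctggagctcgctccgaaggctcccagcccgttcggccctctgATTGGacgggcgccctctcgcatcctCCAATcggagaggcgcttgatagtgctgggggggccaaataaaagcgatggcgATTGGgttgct
Jarid2, first start: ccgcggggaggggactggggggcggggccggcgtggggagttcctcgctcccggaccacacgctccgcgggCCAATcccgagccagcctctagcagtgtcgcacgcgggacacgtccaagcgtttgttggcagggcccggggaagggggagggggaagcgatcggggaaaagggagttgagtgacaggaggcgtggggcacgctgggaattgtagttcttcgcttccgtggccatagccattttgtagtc
Jarid2, second start: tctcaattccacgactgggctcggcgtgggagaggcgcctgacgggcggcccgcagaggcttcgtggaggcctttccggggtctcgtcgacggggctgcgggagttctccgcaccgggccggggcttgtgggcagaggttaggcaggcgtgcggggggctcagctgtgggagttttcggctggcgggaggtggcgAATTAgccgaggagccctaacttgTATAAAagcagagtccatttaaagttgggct
Suz12: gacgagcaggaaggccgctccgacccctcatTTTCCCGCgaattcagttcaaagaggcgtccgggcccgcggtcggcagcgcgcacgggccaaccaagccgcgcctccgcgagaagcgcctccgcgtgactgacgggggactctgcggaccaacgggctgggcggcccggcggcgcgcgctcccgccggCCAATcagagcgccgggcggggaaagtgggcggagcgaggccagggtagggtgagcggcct
The motifs were the CCAAT box (CCAAT), the E2F site (TTTCCCGC, TTTGGCGC, TTTCGCGC or TTTGCCGC), the core of the site bound by Dlx proteins (TAATT), a FoxO site (TGTTTAC), an E box (CACGTG) and the TATA box (TATAAA), none of which contains another. Ezh2 had its CCAAT boxes 11, 64 and 90 bases upstream of the start, where 33.8% of 32851 promoters of the same length hold at least 1. In Suz12 a CCAAT box lay 61 bases and an E2F site (TTTCCCGC) 219 bases upstream, and E2F sites occur in 1.86% of all promoters. The first Jarid2 promoter had a CCAAT box at 179 bases, and the second a TAATT at 55 bases (25% of all promoters) and a TATAAA at 31 bases (12.4%). Bmi1 had a TAATT at 249 and a CACGTG at 215 bases (6.02% of promoters), Eed had a FoxO match at 150 bases (3.17%), and Rnf2 and Ring1 had none of the 6. All 9 promoters of the 8 members with an entry were rich in CpG pairs, from 12 in Eed and 14 in Ezh1 to 37 in Suz12, against a median of 6 over all promoters. Kdm6b has no entry in the table.

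Levels are log2 values as deposited, and the array medians lay between 6.323 and 6.465. Dlx5 itself was at 5.70 to 5.82 in WT, 11.45 to 12.30 in Lck-Dlx5, 11.93 to 12.97 in double transgenic and 9.87 to 10.69 in line 420 tumors, and 6.05 to 6.07 in line 72 tumors. Line 420 tumors, which carry no Dlx5 transgene by their labels, thus had high Dlx5 on every array. Akt2 was not called higher than in WT in any group that carries MyrAkt2 (log2 difference from WT between -0.20 and 0.16), so its feature does not check those labels. Markers of T cells were present on every array, and none of the 12 measured lay below the array median throughout a group. Their mean level was 11.55 to 11.63 in WT, and on the tumor arrays it ran from 9.68 to 11.53. Called lower were 3 of the 12 in Lck-Dlx5, 7 in line 72, 9 in line 420 and 1 in double transgenic tumors. None was called higher. In line 72, Cd8a and Cd8b1 had the largest falls, from group means of 12.70 and 12.91 in WT to 7.54 and 8.66. Neutrophil markers (8 genes) had a mean of 7.33 to 7.93 in WT and 6.64 to 8.12 in line 72, against 5.34 to 5.78 in the other tumors, where at least 7 of the 8 were below the array median throughout each group. Thymic epithelial markers (7 genes) had a mean of 7.21 to 7.48 in WT and 6.04 to 6.92 in tumors. Of these 7, 6 fell in Lck-Dlx5, 5 in line 72, 6 in line 420 and 4 in double transgenic tumors. Cldn4 went the other way in double transgenic tumors (8.11 against 7.33 in WT), as did Epcam in line 72 (by 0.33), neither of them called. Macrophage and dendritic cell markers (10 genes) had a mean of 7.37 to 7.68 in WT, 7.54 to 8.03 in Lck-Dlx5 and 8.21 to 9.09 in line 72. It was 8.02 to 8.59 in line 420 and 7.49 to 8.26 in double transgenic tumors. Of these 10, 2 rose and 1 fell in Lck-Dlx5, and 6 rose in line 72, 4 in line 420 and 1 in double transgenic tumors. Of 5 B cell markers tested, 3 fell in Lck-Dlx5, 4 in line 72, 1 in line 420 and 1 in double transgenic tumors. The counts of markers called are read beside the shares of all genes called higher and lower. These were 13.7% and 15.9% in Lck-Dlx5 and 20.7% and 15.6% in line 72. They were 15.1% and 15.4% in line 420 and 14.9% and 8.93% in double transgenic tumors. Line 72 replicate 2 stood apart in its group, at 9.09 for macrophage, 8.12 for neutrophil and 8.19 for fibroblast and endothelial markers, against at most 8.32, 6.65 and 7.51 on the other 2 arrays. Xist, expressed from the inactive X chromosome, was at 11.78 to 12.03 in all line 72 tumors and 5.15 to 5.80 in all WT samples, so sex and genotype cannot be told apart between those groups. It ran from 5.57 to 12.42 in Lck-Dlx5, 5.32 to 12.37 in line 420 and 4.94 to 12.57 in double transgenic tumors. Xist was thus high on some arrays and low on others in these 3 groups, unlike WT, and sex was not a term in the fit. The Y-linked gene Uty was at 9.59 to 9.84 in WT. In Lck-Dlx5 its median was 4.57 (highest 8.69) and the median of Xist was 5.73. Some Lck-Dlx5 tumor was thus low for both genes, so they do not settle sex in that group. These marker levels moved with the groups, and their part in the results was not tested. In bulk RNA, fewer cells of a type and less RNA per cell cannot be told apart.

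Against WT, Ezh1, Jarid2, Kdm6b and Rnf2 were lower in at least 1 tumor group, Suz12 was higher in Lck-Dlx5 and Eed higher in line 72. Ezh2, Bmi1 and Ring1 were not called against WT in any group. The differences were modest, from 1.30-fold to 1.97-fold for those called. Calls were made where the limma p, adjusted over all 12932 genes, was under 0.05. In Lck-Dlx5 lymphomas 5 of 9 members were called, 1 higher and 4 lower (all genes: 29.6% called, 13.7% higher and 15.9% lower). Line 72 had 2, 1 in each direction (all genes: 36.3%, with 20.7% higher and 15.6% lower), line 420 had 3, all lower (30.5%, with 15.1% higher and 15.4% lower), and double transgenic tumors 2, both lower (23.8%, with 14.9% higher and 8.93% lower). The share of members called was thus 55.6% in Lck-Dlx5, above that of all genes by a margin that was not tested, and 22.2%, 33.3% and 22.2% in the other groups, near or below that of all genes. The median difference of the members was -0.33, -0.22, -0.16 and -0.08 in the same order, against 0.00, 0.04, 0.03 and 0.05 over all genes. All 9 members lay wholly above or below WT in line 72 (58.2% of all genes), 5 in Lck-Dlx5 (52.8%), 5 in line 420 (53.8%) and 4 in double transgenic tumors (40%). The 4 comparisons share their WT arrays, and the shares of all genes depend on them. Leaving out 1 WT array took the genes called from 3079 to between 1664 and 1971 in double transgenic tumors, and from 3828 to 2398 or 2372 in Lck-Dlx5 without WT replicate 1 or 2.

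**Figure D1:**
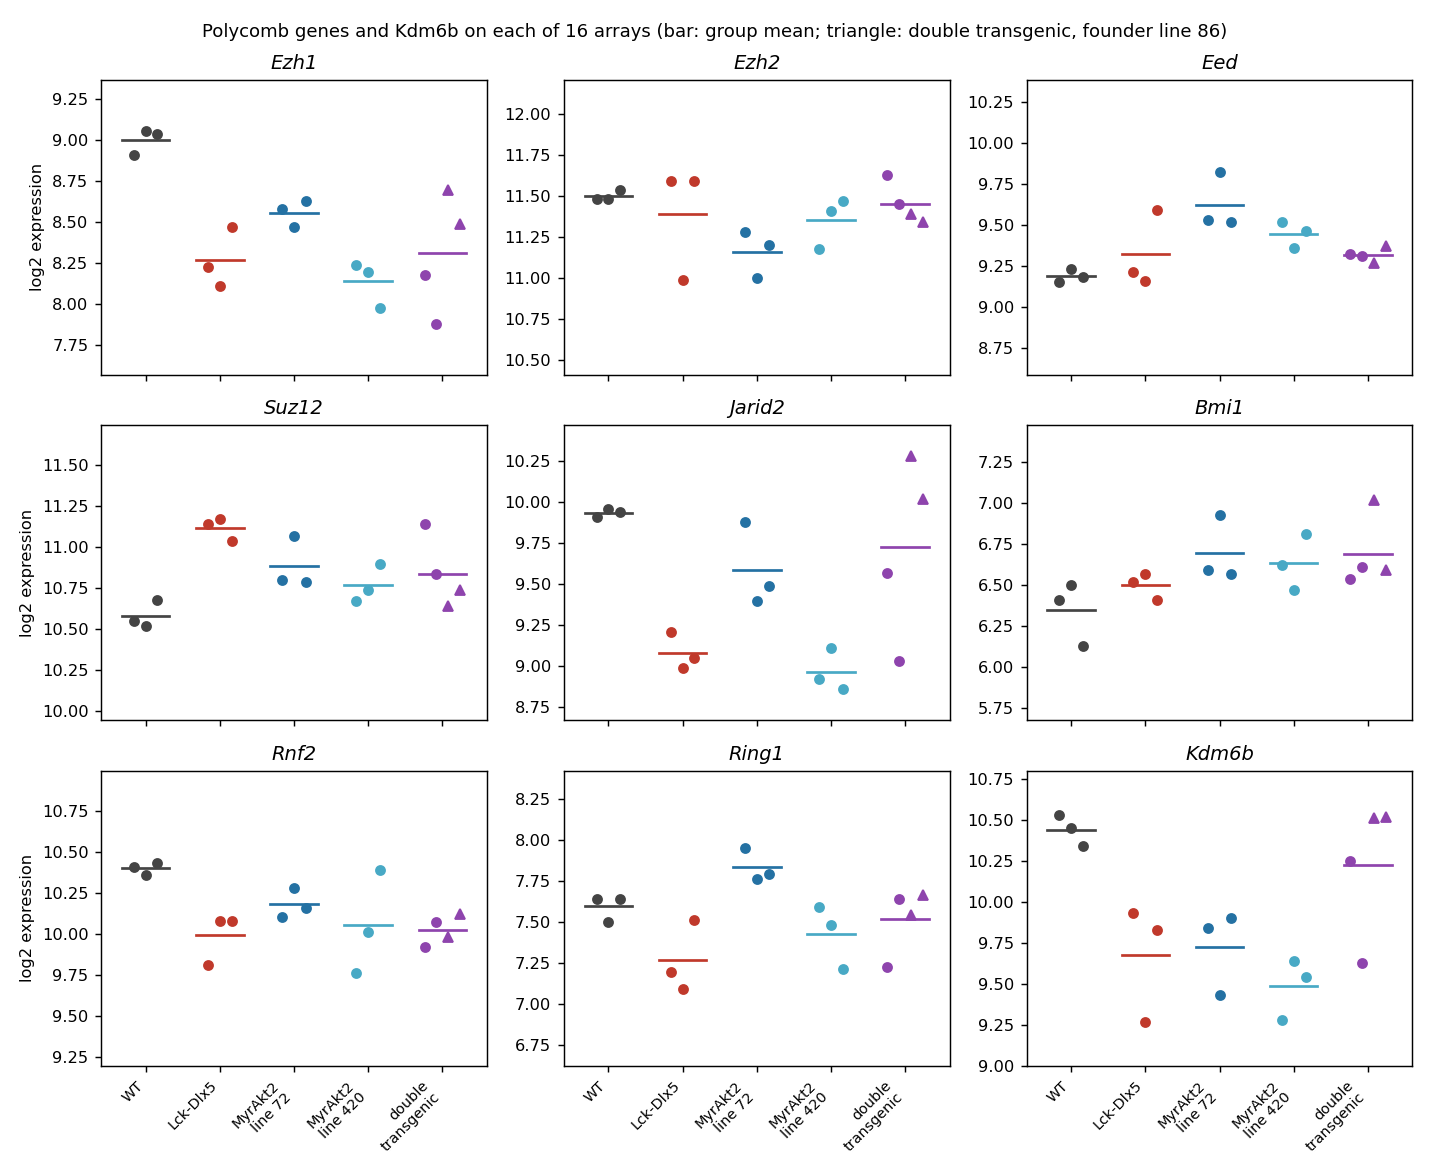
Log2 expression (vertical axis, the same span of 1.8 log2 units in each panel) of the 9 genes on each of 16 arrays, by group. Points are single arrays, bars are group means, and triangles are double transgenic tumors of founder line 86. The WT points of Ezh1 (8.91 to 9.06) lie above every tumor point, and the triangles of Jarid2 (10.28 and 10.02) lie above the WT points.

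**Figure D2:**
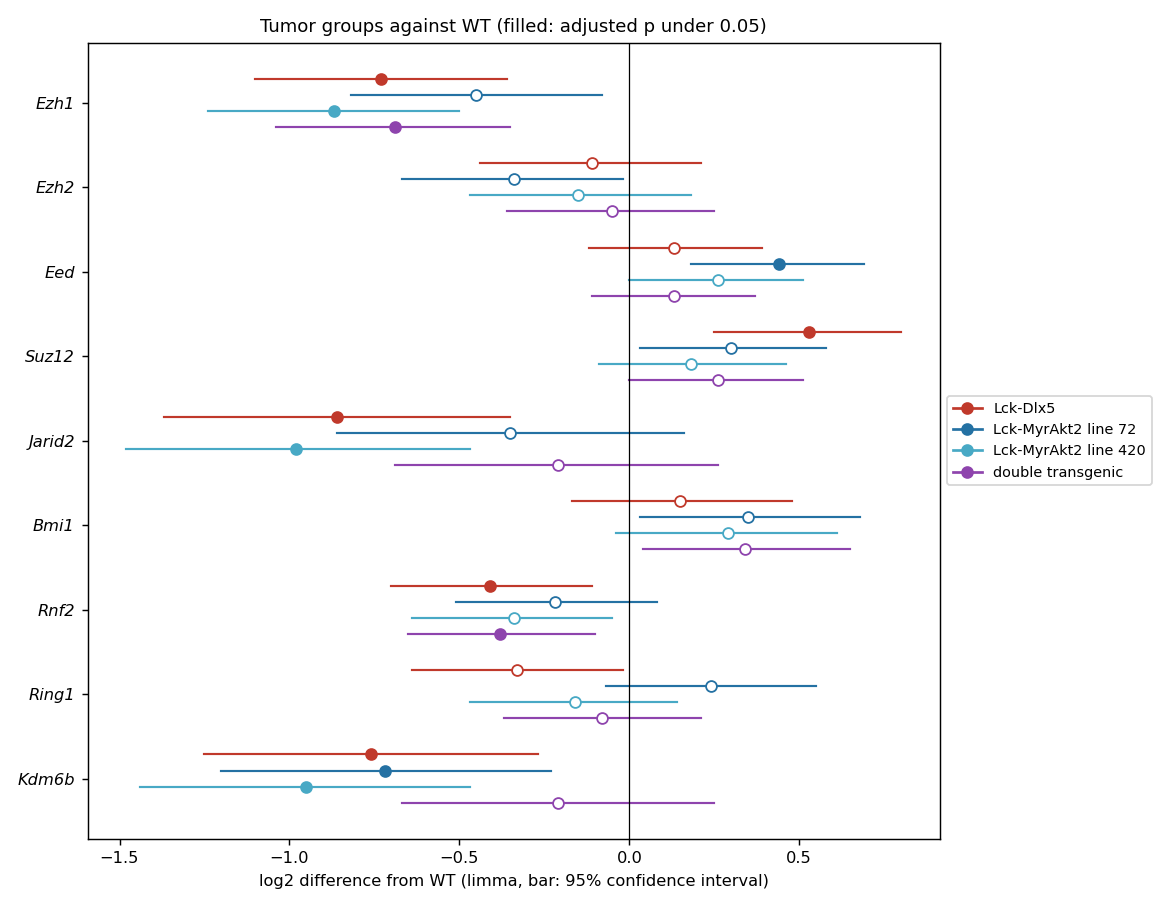
Log2 difference from WT (horizontal axis) of each gene in the 4 tumor groups, with the 95% confidence interval of the limma fit as a bar. Filled points passed an adjusted p of 0.05. Of 36 differences, 12 are filled, 10 of them below 0, and the 2 above 0 are Suz12 in Lck-Dlx5 and Eed in line 72.

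Of the catalytic subunits, Ezh1 was the one called against WT. It lay at 8.91, 9.06 and 9.04 in WT, 8.23, 8.11 and 8.47 in Lck-Dlx5, 8.24, 8.20 and 7.98 in line 420, 8.58, 8.47 and 8.63 in line 72, and 8.18, 7.88, 8.70 and 8.49 in double transgenic tumors. Every tumor array was below every WT array. Ezh1 was 1.66-fold lower in Lck-Dlx5 (log2 difference -0.73 ± 0.17 SE, limma adjusted p = 0.00684), 1.82-fold lower in line 420 (-0.87 ± 0.17, adjusted p = 0.00223) and 1.61-fold lower in double transgenic tumors (-0.69 ± 0.16, adjusted p = 0.00788). In line 72 the difference was -0.45 ± 0.17 and missed the threshold (adjusted p = 0.0554). By mean the order was WT, line 72, double transgenic, Lck-Dlx5 and line 420, and no neighbours in that order were called apart. The Lck-Dlx5 and line 420 calls held in all 14 alternative settings, with adjusted p between 0.000897 and 0.0294 and between 0.00127 and 0.0121.

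Ezh2 was not called in any comparison. The values were 11.48, 11.48 and 11.54 in WT, 11.63, 11.45, 11.39 and 11.34 in double transgenic, 11.59, 10.99 and 11.59 in Lck-Dlx5, 11.18, 11.41 and 11.47 in line 420, and 11.28, 11.00 and 11.20 in line 72. The 1 low Lck-Dlx5 array was replicate 2. The difference from WT was -0.05 in double transgenic (95% interval -0.36 to 0.25), -0.11 in Lck-Dlx5 (-0.44 to 0.21) and -0.15 in line 420 (-0.47 to 0.18), with adjusted p of 0.834, 0.61 and 0.494 by limma. In line 72 it was -0.34 (-0.67 to -0.02, adjusted p = 0.0926), with all 3 arrays below WT, as were all 3 of line 420. These intervals allow a rise of at most 0.25 on the log2 scale. Of 13 cell cycle genes tested, which mark dividing cells, 10 rose and 1 fell in Lck-Dlx5 (median difference 0.52, where 13.7% of all genes were called higher). In line 72, 5 rose and 1 fell (all genes: 20.7% higher), and in line 420 and the double transgenic tumors 4 rose and 1 fell (15.1% and 14.9% higher), and the other 7 or 8 genes, among them the proliferation markers Mki67 and Top2a, were not called in these 3 groups. The replication helicase genes Mcm2, Mcm3 and Mcm5 rose in all 4 groups (in Lck-Dlx5 by 0.83, 0.94 and 0.89), as did the spindle checkpoint kinase Bub1 in all but line 72 (0.92 in Lck-Dlx5), and E2f2 was the gene that fell (-0.90 in Lck-Dlx5, -0.60 in double transgenic).

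Within each array the difference Ezh2 minus Ezh1 followed the 2 catalytic subunits together. Its size depends on the probes of the 2 features, so it is read only between arrays, as a description with no test. It was 2.57, 2.42 and 2.50 in WT and 2.70, 2.53 and 2.57 in line 72, so these groups overlapped. It was 3.36, 2.87 and 3.12 in Lck-Dlx5, 2.95, 3.21 and 3.50 in line 420, and 3.45, 3.57, 2.69 and 2.85 in double transgenic tumors. All 10 arrays of these 3 groups lay above all 3 WT arrays, and the 2 lowest double transgenic values were those of founder line 86.

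**Figure D3:**
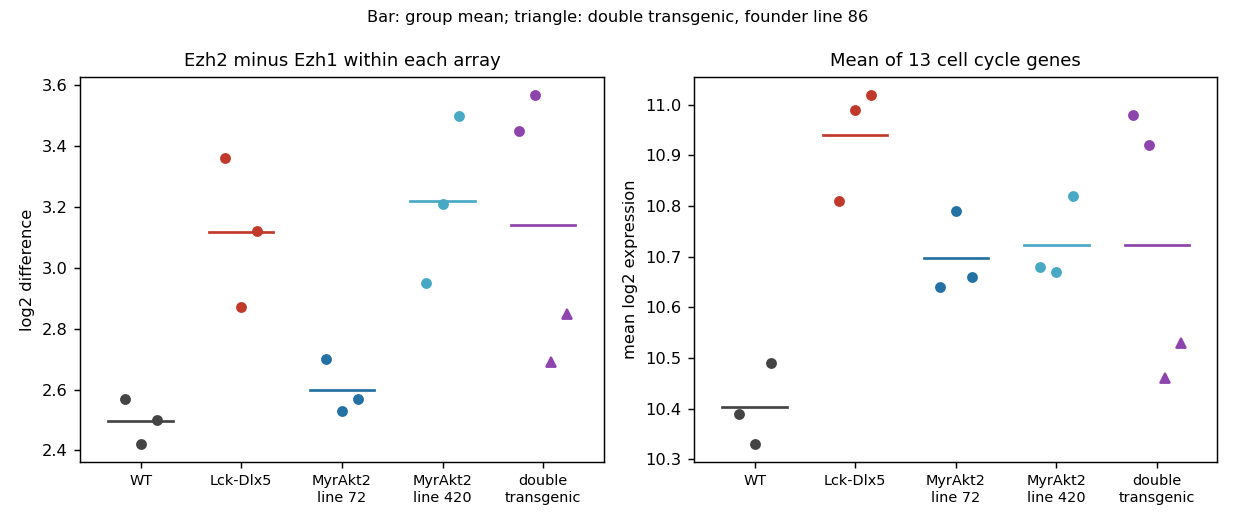
Left, the log2 difference Ezh2 minus Ezh1 within each array. Right, the mean log2 expression of 13 cell cycle genes on the same arrays. Points are arrays, bars are group means, and triangles are double transgenic tumors of founder line 86. WT arrays sit lowest on the left (2.42 to 2.57), overlapping line 72, and the triangles (10.46 and 10.53) sit near the WT arrays (10.33 to 10.49) on the right.

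The core partners Suz12 and Eed each rose in 1 tumor group. Suz12 was at 10.55, 10.52 and 10.68 in WT and 11.14, 11.17 and 11.04 in Lck-Dlx5, with no overlap. That is 1.44-fold higher (log2 difference 0.53 ± 0.13, limma adjusted p = 0.00822, between 0.0029 and 0.0357 in 14 alternative settings). Line 72 (10.80, 11.07 and 10.79), double transgenic (11.14, 10.84, 10.64 and 10.74) and line 420 tumors (10.67, 10.74 and 10.90) lay between, at 0.30, 0.26 and 0.18 above WT with adjusted p of 0.0818, 0.139 and 0.301. Eed was highest in line 72, at 9.53, 9.82 and 9.52 against 9.15, 9.23 and 9.18 in WT. It was called there (0.44 ± 0.12, 1.35-fold, limma adjusted p = 0.0112), but not without line 72 replicate 2, the highest array, where the adjusted p was 0.0565 (0.00829 to 0.0565 over 14 settings). That array was also the highest of its group in macrophage, neutrophil and fibroblast markers, whose part in the result was not tested. Eed in line 420 (9.52, 9.36 and 9.46), double transgenic (9.32, 9.31, 9.27 and 9.37) and Lck-Dlx5 tumors (9.21, 9.16 and 9.59) differed from WT by 0.26, 0.13 and 0.13, none of them called. The Lck-Dlx5 value rested on replicate 3 and was -0.00 without it.

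Jarid2 had the widest range of group means of the 9 genes, 0.98 log2 units, wider than in 78.4% of the genes tested. It was at 9.91, 9.96 and 9.94 in WT, 9.21, 8.99 and 9.05 in Lck-Dlx5 and 8.92, 9.11 and 8.86 in line 420, so both tumor groups lay wholly below WT. The fall was 1.81-fold in Lck-Dlx5 (log2 difference -0.86 ± 0.24, limma adjusted p = 0.0158) and 1.97-fold in line 420 (-0.98 ± 0.24, adjusted p = 0.00724), and both calls held in all 14 alternative settings. Line 72 tumors (9.88, 9.40 and 9.49) were below WT on all 3 arrays, by -0.35 ± 0.24 (adjusted p = 0.28). Double transgenic tumors spread over 9.57, 9.03, 10.28 and 10.02, with the lowest array among those of Lck-Dlx5 and line 420 and the highest 2 above WT, and a difference from WT of -0.21 ± 0.22 (adjusted p = 0.533). The mean of the T cell markers was, like Jarid2, lower in the tumors with a single transgene than in WT. It was 11.55 to 11.63 in WT, 10.14 to 10.95 in Lck-Dlx5, 9.68 to 10.60 in line 420 and 10.09 to 10.54 in line 72. In double transgenic tumors, where Jarid2 overlapped WT, the marker mean was 10.22 to 11.53, also below every WT array. That mean includes Cd8a and Cd8b1, which had group means of 7.54 and 8.66 in line 72 against 12.70 and 12.91 in WT. The part of the T cell markers in the result was not tested.

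Kdm6b, the demethylase, was lower than WT in the 3 groups with a single transgene. WT arrays were at 10.53, 10.45 and 10.34, Lck-Dlx5 at 9.93, 9.27 and 9.83, line 72 at 9.84, 9.43 and 9.90 and line 420 at 9.28, 9.64 and 9.54. All 9 tumor arrays of these groups were below all 3 WT arrays. The falls were 1.69-fold (log2 difference -0.76 ± 0.23, limma adjusted p = 0.023), 1.64-fold (-0.72 ± 0.23, adjusted p = 0.0241) and 1.94-fold (-0.95 ± 0.23, adjusted p = 0.00654). The line 420 call held in all 14 settings, whereas the Lck-Dlx5 call was lost without Lck-Dlx5 replicate 2, WT replicate 1 or WT replicate 2 (0.0155 to 0.0971 over 14 settings) and the line 72 call without line 72 replicate 2 or the same 2 WT arrays (0.005 to 0.104). Double transgenic tumors, at 10.25, 9.63, 10.51 and 10.52, overlapped WT (-0.21 ± 0.21, adjusted p = 0.517). A second Kdm6b feature lay between 5.625 and 6.504 and was above the array median on 1 array only. Kdm6a was at 10.37 to 10.48 in WT and its differences from WT, from -0.25 to 0.08, were not called. Kdm6a is X-linked, and sex by Xist differed between WT and part of the tumors, so sex was not separated from these differences.

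Among PRC1 genes, Rnf2 fell in 2 tumor groups, and Ring1 and Bmi1 were not called against WT. Rnf2 was at 10.41, 10.36 and 10.43 in WT, 9.81, 10.08 and 10.08 in Lck-Dlx5 and 9.92, 10.07, 9.98 and 10.12 in double transgenic tumors, with no overlap with WT in either. The falls were 1.33-fold (log2 difference -0.41 ± 0.14, limma adjusted p = 0.0381) and 1.3-fold (-0.38 ± 0.13, adjusted p = 0.0461). Both were near the threshold: the first was called in 6 of 14 alternative settings (0.0228 to 0.132) and the second in 6 of 17 (0.0228 to 0.179), and leaving out any 1 array of the groups compared ended each call. Rnf2 in line 72 (10.10, 10.28 and 10.16) was below WT on every array and in line 420 (9.76, 10.01 and 10.39) on 2 of 3, with differences of -0.22 and -0.34 and adjusted p of 0.237 and 0.0717.

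Ring1, the paralog of Rnf2, was ordered differently. It was highest in line 72 (7.95, 7.76 and 7.79) and lowest in Lck-Dlx5 (7.19, 7.09 and 7.51), with WT (7.64, 7.50 and 7.64), double transgenic (7.22, 7.64, 7.54 and 7.66) and line 420 tumors (7.59, 7.48 and 7.21) between. Line 72 lay above WT on all 3 arrays by 0.24 ± 0.14 (limma adjusted p = 0.213) and Lck-Dlx5 differed by -0.33 ± 0.14 (adjusted p = 0.1). Neither was called, although the Lck-Dlx5 difference was without Lck-Dlx5 replicate 3 (0.0452, with 0.0452 to 0.288 over 13 settings). Bmi1 was the dimmest member, above the array median on 14 of 16 arrays, at 6.41, 6.50 and 6.13 in WT. It was 0.35 above WT in line 72 (6.59, 6.93 and 6.57), 0.34 in double transgenic (6.54, 6.61, 7.02 and 6.59), 0.29 in line 420 (6.62, 6.47 and 6.81) and 0.15 in Lck-Dlx5 (6.52, 6.57 and 6.41). None of these was called (adjusted p of 0.0849, 0.0943, 0.168 and 0.471).

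Between tumor groups, 1 of 54 differences was called. Ring1 was 1.48-fold lower in Lck-Dlx5 than in line 72 (log2 difference -0.57 ± 0.14, limma adjusted p = 0.0142), 1 of 9 members where 19.7% of all genes were called. The groups did not overlap. That call was lost without Lck-Dlx5 replicate 2 or line 72 replicate 1 (0.00775 to 0.0569 over 13 settings). Ring1 in line 420 against line 72 came to -0.40 (adjusted p = 0.0897) and Eed in Lck-Dlx5 against line 72 to -0.30 (adjusted p = 0.0891). In the other 5 comparisons 0 of 9 members were called by limma, where 0.827% of all genes were called in Lck-Dlx5 against line 420, 11.2% in line 420 against line 72, and 1.86%, 0.178% and 17.7% in double transgenic tumors against Lck-Dlx5, line 420 and line 72. At an unadjusted p under 0.05 the members numbered 1, 3, 3, 2 and 3 in the same order, beside 14.8%, 25%, 20.8%, 15.5% and 31.8% of all genes at that threshold. Jarid2 was 0.64 and 0.76 higher in double transgenic tumors than in Lck-Dlx5 and line 420 (adjusted p = 0.12 and 0.139), and Kdm6b 0.55 and 0.74 higher (adjusted p = 0.159 and 0.135). With the Dlx5 founder line as a block, which founder lines 47 and 86 allow, the differences from Lck-Dlx5 were 0.71 ± 0.20 for Jarid2 and 0.68 ± 0.18 for Kdm6b (limma adjusted p = 0.0716 and 0.0573).

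The double transgenic tumors were also compared by Dlx5 founder line, a split looked at after the values were seen. Jarid2, Kdm6b and Ezh1 were higher on both arrays of founder line 86, and Suz12 and Ezh2 were lower on both. Eed, Bmi1, Rnf2 and Ring1 overlapped. How many of all genes separate in this way was not counted, so the separation is a description only. With the founder lines as 2 groups in the fit, Jarid2 was 0.85 ± 0.19 higher in founder line 86 (mean 10.15, n = 2) than in founder line 47 (9.30, n = 2), with a limma adjusted p of 0.0254 (all genes: 4.28% called). Ezh1 was 0.56 ± 0.15 higher (8.60 and 8.03, adjusted p = 0.0531) and Kdm6b 0.57 ± 0.24 (10.51 and 9.94, adjusted p = 0.204). Suz12 differed by -0.30 (10.69 and 10.99, adjusted p = 0.247) and Ezh2 by -0.18 (11.36 and 11.54, adjusted p = 0.635). Against WT, founder line 47 tumors had lower Ezh1 (-0.97 ± 0.14, adjusted p = 0.00028) and Jarid2 (-0.64 ± 0.17, adjusted p = 0.0123) and higher Suz12 (0.40 ± 0.13, adjusted p = 0.0272), 3 of 9 members where 30.8% of all genes were called. In founder line 86 tumors 0 of 9 members were called against WT (10.6% of all genes), with Ezh1 at -0.41 (adjusted p = 0.0759), Jarid2 at 0.21 (0.483) and Kdm6b at 0.07 (0.874). The T cell marker mean split the same way, at 10.86 and 10.22 in founder line 47 and 11.49 and 11.53 in founder line 86, and the cell cycle mean the other way, at 10.98 and 10.92 against 10.46 and 10.53. Their part in the split was not tested. In the Lck-Dlx5 group, Jarid2 was at 8.99 in the founder line 47 tumor and 9.05 in the founder line 86 tumor. The letter or number form of the sample codes also changes with Dlx5 founder line among the double transgenic tumors. So does the Akt2 line in the labels, which is 420 for founder line 47 and not named for founder line 86. These cannot be told apart.

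Other subunits and partners showed few shared changes. Of 8 cofactors of PRC2, Phf1, a Polycomb-like protein that binds chromatin, fell in all 4 tumor groups (WT mean 8.02, tumor means 7.14 to 7.30, log2 differences -0.72 in Lck-Dlx5, -0.85 in line 72, -0.88 in line 420 and -0.82 in double transgenic). Rbbp7, a histone-binding subunit, rose by 0.48 in line 72, 0.43 in line 420 and 0.33 in double transgenic tumors, and Epop rose by 0.86 in line 72. The remaining 5 were not called against WT. The counts of called genes in these lists are read beside the shares of all genes called higher and lower, which were 13.7% and 15.9% in Lck-Dlx5, 20.7% and 15.6% in line 72, 15.1% and 15.4% in line 420, and 14.9% and 8.93% in double transgenic tumors. Of 16 other PRC1 subunits tested, 1 rose and 4 fell in Lck-Dlx5, 5 rose and 3 fell in line 72, 3 rose and 1 fell in line 420, and 2 rose and 1 fell in double transgenic tumors, so that several of these counts were near the shares of all genes. Scmh1, a relative of the fly protein Sex comb on midleg, had the largest differences (-1.28 in Lck-Dlx5, -1.92 in line 72). Genes of the non-canonical forms of PRC1 went both ways. Pcgf6 rose by 0.92 in line 72, 0.73 in line 420 and 0.69 in double transgenic tumors, and its partner E2f6 by 1.25 in line 72 and 0.67 in double transgenic. L3mbtl2 rose by 0.57 in Lck-Dlx5, 0.56 in line 72 and 0.58 in line 420. Pcgf5 fell by 0.87 in Lck-Dlx5 and 1.12 in double transgenic tumors.

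Trithorax group proteins oppose Polycomb silencing, in part by methylating histone H3 on another lysine. Of 10 tested, 2 rose and 3 fell in Lck-Dlx5, 2 rose and 6 fell in line 72, 2 rose and 4 fell in line 420, and 2 rose and 2 fell in double transgenic tumors. Wdr5 and Ash2l, shared subunits of the methyltransferase complexes, were the ones that rose, in all 4 groups (Wdr5 from 8.57 in WT to 9.11 to 9.14 in tumors, Ash2l by 0.44 in Lck-Dlx5 and 0.43 in double transgenic). The methyltransferase Kmt2b fell in all 4 (-0.55 in Lck-Dlx5, -0.54 in line 420, -0.36 in double transgenic), as did the chromatin remodeler Smarca4 (-0.32 in double transgenic), while Kmt2c fell by 1.07 in line 72 and by 0.72 in line 420. The median difference of the 10 genes was -0.33, -0.39, -0.33 and -0.32 in Lck-Dlx5, line 72, line 420 and double transgenic tumors, against 0.00, 0.04, 0.03 and 0.05 over all genes, while the 2 genes that rose were near the share of all genes called higher. Of 5 genes for enzymes that counteract PRC1 or PRC2 and for their cofactors, only Asxl2, a cofactor of the H2A deubiquitylase Bap1, was called. It was at -0.35 in line 72.

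**Figure D4:**
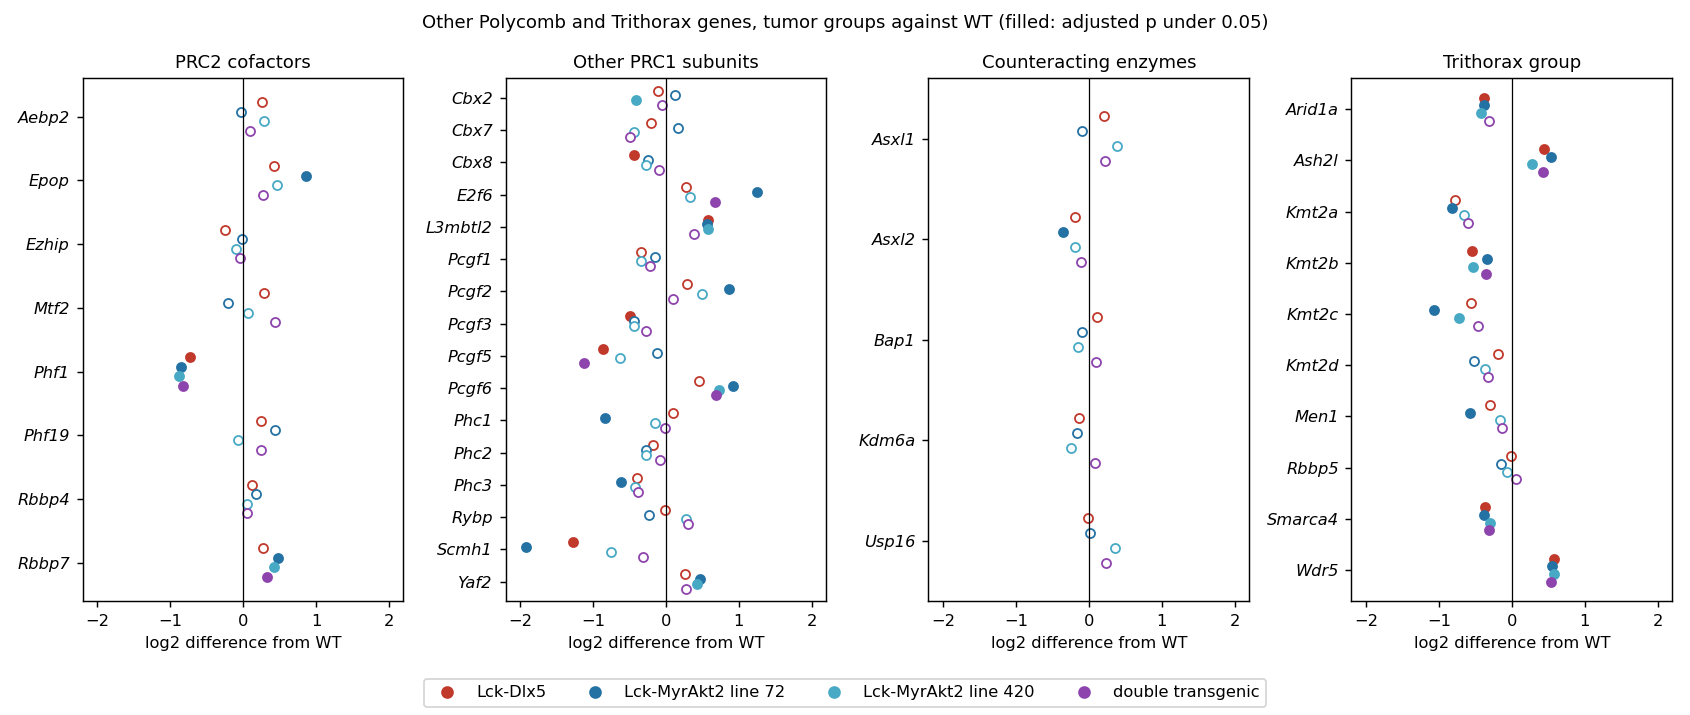
Log2 difference from WT (horizontal axis) of the other Polycomb and Trithorax genes tested, in 4 panels by gene list, colored by tumor group. Filled points passed an adjusted p of 0.05. Phf1, near -0.8 in all 4 groups, and Wdr5, near 0.55, are filled throughout, and Scmh1 reaches -1.92 in line 72.

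Of 13 genes with a feature that Polycomb is known to silence, 5 were bright enough to be tested, and 6 (Hoxa5, Hoxa7, Hoxa9, Hoxa10, Hoxb6 and Zic1) lay below the array median on all 16 arrays. Cdkn2b, which encodes the cell cycle inhibitor p15, was called in 3 groups, 0.35 above WT in Lck-Dlx5, 0.33 in line 72 and 0.37 in line 420 (limma adjusted p = 0.0315, 0.0354 and 0.0225), and was at 0.29 in double transgenic tumors (adjusted p = 0.0617). That is 1 of the 5 tested in each of the 3 groups, near the 13.7%, 20.7% and 15.1% of all genes called higher there. Cdkn2b was dim, with group means from 6.84 in WT to 7.21 in line 420. Cdkn2a from the same locus differed by 0.31, 0.15, 0.33 and 0.04 and was not called.

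The genes whose pattern over the 16 arrays was nearest to a member were sought for the 3 members with the widest range of group means, as the root mean square difference after each gene was centred on its own mean. Nearest to Jarid2, whose own spread around its mean was 0.452, were Tgfbr2 (0.18), a receptor for TGF-beta, Itgb2 (0.185), an integrin of leukocytes, and Elf1 (0.2), an Ets family transcription factor. For Kdm6b (own spread 0.435) they were Vps37a (0.173), Scube3 (0.175) and Pdpk1 (0.184), the kinase that phosphorylates Akt. Ezh1 (own spread 0.348) was matched most closely by Rapgef6 (0.116), Vav1 (0.127), a guanine nucleotide exchange factor of T cell receptor signaling, and Aftph (0.129). All are likenesses over arrays that share the same 5 groups.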

How the data were processed

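Expression in 16 samples was measured on Affymetrix mouse gene arrays, 1 per sample. The authors deposited log2 expression summaries per feature, made with Affymetrix Expression Console; version, summarization and normalization are not given in the sources used here, and the values were used unchanged. Of 41345 features, 23521 carried 1 gene symbol, 1820 several and 16004 none in the platform annotation. The brightest feature of each of 22180 genes was kept, and 12932 genes above the array median on at least 3 arrays were tested. With limma 3.58.1 (R 4.3.3), a mean for each of 5 groups was estimated from the 16 arrays together and 10 pairwise comparisons were taken (eBayes, Benjamini-Hochberg over the genes tested). The fit was tested on simulated data with known changes. The number of arrays limits the precision, and nothing says which samples share an extraction. Named genes are the 9 members in all comparisons, up to 4 called genes of largest size per comparison and list, and the 3 nearest genes of 3 members (predicted genes and small RNAs left out). The members and lists were chosen with earlier results of these data known. Kdm6a, Dlx5, Akt2, Xist, Uty and Cdkn2a were named for their role. Alternatives were arrays brought to 1 common median, quantile normalization, 2 other filters on dim features, the mean of a gene's features, eBayes with trend and robust, only the arrays compared, the type of sample code as a term, and each array left out in turn. The founder line splits and the founder line block were added after seeing the data. Figures were drawn with matplotlib.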

Additional observations from a re-analysis of the deposited data

Results flagged for a closer look

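In double transgenic tumors Bmi1 was at 6.54, 6.61, 7.02 and 6.59, and the gap between replicate 3 and the nearest other array was 0.859 of the range of the group, above the critical value for 4 samples. This was 1 of 9 such groups examined, and chance flags about 1 in 20.

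Ring1 differed between tumor groups: it was 0.57 lower on the log2 scale in Lck-Dlx5 than in line 72 (log2 difference -0.57, limma adjusted p = 0.0142), so the differences of these groups from WT (-0.33 and 0.24) also differ by that amount.

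Jarid2 was 0.85 higher in double transgenic tumors of founder line 86 than in those of founder line 47 (limma adjusted p = 0.0254), a split made after the values were seen, with 2 tumors in each.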

How the results depend on the processing

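Over 43 single differences of the members and 633 fits under other settings, 568 kept direction and side of the threshold, 29 lost a call, 25 gained one and 11 changed sign, none of them a called difference. The 43 are the 36 differences from WT and, of the 54 between tumor groups, only those given singly above. The sign changes listed below are from the same differences. The members called in line 72 against WT went from 2 to 5 with quantile normalization and to 4 with only the arrays compared or with the sample code term. In double transgenic against WT they went from 2 to 1 with arrays at the same median or without a filter, and to 0 with founder line 86 only. The 75th percentile filter, which drops Ring1, left 0 in Lck-Dlx5 against line 72. In double transgenic against line 72 the count of 0 became 1 with quantile normalization or founder line 47 only and 2 with founder line 86 only. Against Lck-Dlx5 it became 2 with the code term and 3 with founder line 86 only, and against line 420 it became 1 and 3 under the same settings. With 1 array left out the counts ran from 3 to 5 in Lck-Dlx5 against WT (3 without Lck-Dlx5 replicate 2, WT replicate 1 or WT replicate 2), 0 to 2 in line 72 against WT (0 without line 72 replicate 2), 1 to 1 in double transgenic against WT, 0 to 2 in Lck-Dlx5 against line 72, 0 to 2 in double transgenic against Lck-Dlx5 and against line 420, and 0 to 1 against line 72, the highest of these 3 without double transgenic replicate 2.

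Signs that changed, all of differences not called, were Ezh2 in double transgenic against WT (0.02 at the same median, 0.04 with founder line 47 only), Jarid2 (0.07 with the code term, -0.40 to 0.02 with 1 array left out, positive without double transgenic replicate 2, 0.21 with founder line 86 only), Ring1 (0.04 with the code term, -0.13 to 0.02 with 1 array left out, positive without double transgenic replicate 1, 0.01 with founder line 86 only) and Kdm6b (0.07 with founder line 86 only) in the same comparison, and Ezh2 (-0.21 to 0.09 with 1 array left out, positive without Lck-Dlx5 replicate 2) and Eed (-0.00 to 0.21, lowest without replicate 3) in Lck-Dlx5 against WT. The cause was not tested.

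Shifting arrays to the same median moved the median of all genes to 0.12 in double transgenic against WT (0.05 as deposited) and to 0.11 against Lck-Dlx5 (0.07). Counts over all genes moved most in double transgenic against Lck-Dlx5 (241 genes, 0 with only the arrays compared, 1932 with founder line 86 only) and against line 420 (23 genes, 3 and 1321). No paired analysis was possible because only the WT labels carry replicate numbers, so no groups share them. A block by Dlx5 founder line, added after seeing the data, was possible for double transgenic against Lck-Dlx5 and left 0 members called (all genes: 373 called, 241 without it). With 3 or 4 arrays a group, the smallest difference called for a member was -0.38.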
